A study of Mus musculus with 18 samples.

Results

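Constant CTCF regions in gene deserts are places where chromatin immunoprecipitation sequencing (ChIP-seq) called a CTCF peak in all 3 genotypes of mouse embryonic stem cells, far from any protein-coding gene. Overlapping peaks of the 3 peak lists were merged, and a merged region was kept when it held peaks of all 3 lists, lay on chromosomes 1 to 19 and had every wild-type summit more than 100 kb from every protein-coding gene span in the mm10 RefSeq annotation. This selected 4339 of 78072 merged regions (5.56%), or 8.62% of the 50356 autosomal regions constant across the lists. The members were chosen by their presence in the 3 lists and by the position of their wild-type summits, so presence and distance describe the selection and carry no test.

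The study measured CTCF by ChIP-seq against input in stem cells kept on a feeder layer of irradiated embryonic fibroblasts, whose chromatin may be present in the lysates. The groups were wild type (WT), a Tet1/2/3 triple knockout (TKO) and a sextuple knockout of Dnmt1/3a/3b and Tet1/2/3 (SKO), each with 3 ChIP and 3 input samples, 18 samples in all. TET enzymes are missing from both knockouts and DNA methyltransferases from SKO alone; the labels do not say whether a line is 1 clone or whether replicates came from separate cultures. Each list was called on the 3 replicates pooled, so each region has 1 value per genotype, no spread between replicates can be given, and no comparison between genotypes carries a p-value. The WT, TKO and SKO lists held 71075, 62238 and 59372 distinct intervals. Intervals given below are 95% intervals that cover counting error only. Those on pileups can be too narrow, since PCR copies without molecular identifiers are not independent molecules. Those on shares count regions, which they treat as independent.

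CTCF is a zinc finger protein that binds a long DNA motif and, with the ring complex cohesin, stops loop extrusion and so sets the ends of chromatin loops and domains. Methylation of cytosine within the motif is known to weaken binding at some sites. Gene deserts are long stretches without protein-coding genes; many flank developmental regulators and hold distant enhancers, and CTCF sites inside them lie at domain borders or between such enhancers and genes.

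The name gene desert suits most members and not all. RefSeq files the variable, diversity, joining and constant segments of antigen receptor genes under biotypes of their own, so the receptor loci pass as deserts, and 149 members (3.43%) lay within 100 kb of such segments. Another 680 members (15.7%) had their strongest WT summit inside a long noncoding RNA (lncRNA) gene, against 9.72% of all constant autosomal regions, and only 659 were more than 100 kb from genes of every biotype. A further 30 members (0.691%) sat where the WT background, the local level expected without binding, was at least 20 fragments. That background was 2.73 at the median member.

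RefSeq promoter sequences (GRCm38.p6, the assembly behind mm10; 250 bases before to 50 after each start) show what DNA underlies some of these summits. The strongest WT summit fell inside a promoter window at 20 members, all of them lncRNA promoters. The motif searched was CCA, any 2 bases, AG, any 2 bases, GGC, on both strands, which fixes 8 letters of 12. An exact match occurred in 1 of the 20 windows (5.00%, Wilson interval 0.888 to 23.6%), in 2.47% of all 31396 autosomal promoter windows of the same length, and in 17.2% of the 1384 windows that held a constant summit elsewhere. Allowing 1 of the 8 letters to differ, a choice made after the sequences were seen, 14 of the 20 windows matched (70.0%), against 30.8% of all promoters and 64.7% of those with a constant summit elsewhere. In 12 of the 20 the match lay within 50 bases of the summit, at a median of 15.5 bases, and 1 of these 12 matches contained a CG pair. The fixed letters leave few places for a CG. One formed by the last C and the base after it, as at Gm40763, was not counted, so this count does not show how many sites lack a CG. Among the 242 lncRNA windows with a constant summit elsewhere, the like class, 29.3% held an exact match, 71.1% a match with 1 letter allowed to differ and 59.5% such a match within 50 bases, beside 60.0% of the 20.

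The following 5 windows are shown because they pair a sequence with contrasting values in the lists, each 5′ to 3′ on the strand of the gene. Capitals mark the match (at most 1 fixed letter differing) nearest the WT summit. Mir100hg, a host transcript of microRNAs, lies at chr9:41474643-41474942 on the plus strand. 4930432J09Rik lies at chr14:104027093-104027392 on the minus strand, Gm40763 at chr10:111636320-111636619 on the minus strand and Gm13848 at chr6:31666082-31666381 on the minus strand. Gm46796, the window with the exact match, lies at chr3:6106767-6107066 on the plus strand with the match on the opposite strand.
Mir100hg: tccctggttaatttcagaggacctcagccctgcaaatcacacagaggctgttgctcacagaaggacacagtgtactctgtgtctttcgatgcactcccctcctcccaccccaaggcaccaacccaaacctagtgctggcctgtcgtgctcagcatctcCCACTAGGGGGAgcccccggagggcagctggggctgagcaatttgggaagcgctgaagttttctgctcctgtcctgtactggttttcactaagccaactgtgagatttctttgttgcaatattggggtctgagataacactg
4930432J09Rik: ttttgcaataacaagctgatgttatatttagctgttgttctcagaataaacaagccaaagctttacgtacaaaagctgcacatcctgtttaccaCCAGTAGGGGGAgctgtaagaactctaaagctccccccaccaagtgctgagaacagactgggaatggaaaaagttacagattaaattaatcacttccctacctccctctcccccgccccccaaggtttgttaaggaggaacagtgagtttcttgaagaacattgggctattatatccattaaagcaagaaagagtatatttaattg
Gm40763: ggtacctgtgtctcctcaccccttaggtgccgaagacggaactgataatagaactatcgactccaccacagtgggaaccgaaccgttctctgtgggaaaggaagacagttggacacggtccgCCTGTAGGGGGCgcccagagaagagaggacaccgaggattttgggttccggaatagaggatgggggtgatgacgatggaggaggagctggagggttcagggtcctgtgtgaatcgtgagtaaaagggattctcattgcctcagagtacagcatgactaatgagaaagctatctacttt
Gm13848: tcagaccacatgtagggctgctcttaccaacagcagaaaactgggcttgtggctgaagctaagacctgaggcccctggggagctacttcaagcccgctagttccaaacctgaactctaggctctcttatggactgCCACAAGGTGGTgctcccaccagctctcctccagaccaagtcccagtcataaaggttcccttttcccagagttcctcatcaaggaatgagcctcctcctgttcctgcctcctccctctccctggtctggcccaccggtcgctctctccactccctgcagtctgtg
Gm46796: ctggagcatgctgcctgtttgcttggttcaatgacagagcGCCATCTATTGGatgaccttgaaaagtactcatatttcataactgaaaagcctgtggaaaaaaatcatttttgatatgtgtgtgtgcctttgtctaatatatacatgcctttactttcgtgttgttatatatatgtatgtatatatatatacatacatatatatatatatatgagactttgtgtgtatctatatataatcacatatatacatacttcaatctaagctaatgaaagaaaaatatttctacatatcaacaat

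Fold enrichment divides the ChIP fragments stacked over a summit by the level expected there from the background. The same small constant is first added to both, so pileup over background does not return the fold exactly. These are the authors' values for each peak. At the Mir100hg window WT had a fold of 20.4, TKO 17.7 and SKO 15.6. 4930432J09Rik, between the endothelin receptor gene Ednrb and the homeobox gene Pou4f1, had folds of 22.1, 28.0 and 20.7. Gm40763 had folds of 14.3, 16.9 and 16.2 in the same order. These 3 windows were near level in fold across the lists. Their pileups were less so, at 122, 117 and 77 fragments for Mir100hg and 103, 78 and 75 for 4930432J09Rik. Gm40763 had pileups of 104, 59 and 69 on backgrounds of 6.34, 2.54 and 3.33. Gm13848, in the desert beside Podxl, had 12.5 in WT, 5.21 in TKO and 6.28 in SKO, with pileups of 48, 37 and 22 fragments over backgrounds of 2.91, 6.30 and 2.66, so its TKO fold went with a higher background as well as a lower pileup. Gm46796 was lowest in WT, with folds of 5.86, 9.36 and 18.2 and pileups of 25, 29 and 42. Its backgrounds were 3.44, 2.20 and 1.37, the last being the lowest of the SKO list, so its fold rose with both. The highest WT fold among the 20 windows was 27.3, at the promoter of 4930471G24Rik, between Rnf144b and the inhibitor of differentiation gene Id4, where neither search found a match; no match says only that these letters are not in that window.

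The richest deserts were counted first. Of 1376 stretches longer than 200 kb between neighbouring protein-coding genes, 977 (71.0%) held a member, with a median of 3 members each; 234 held 1 and 90 held 10 or more, together 1292 members. Those 1376 deserts contain 655 Mb lying more than 100 kb from a gene, which gives 6.56 members per Mb. The most members, 70, lay between Gm36448 and Dad1 on chromosome 14, the T cell receptor alpha and delta locus. WT fold there ran from 4.36 to 30.8 with a median of 14.0; the medians were 11.7 in TKO and 14.1 in SKO. Next came 48 members between Gm4868 and Tmem132c on chromosome 5, the richest stretch without receptor segments, with 34.5 members per Mb over 1392 kb. Its WT folds ran from 5.27 to 23.7 with a median of 10.9, and the medians were 9.28 in TKO and 8.45 in SKO. The immunoglobulin heavy chain locus, between Adam6a and Zfp386 on chromosome 12, held 46 members with median folds of 11.9, 10.6 and 12.2. So 2 of the 3 richest stretches were antigen receptor loci, in cells that are not lymphocytes.

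**Figure D1:**
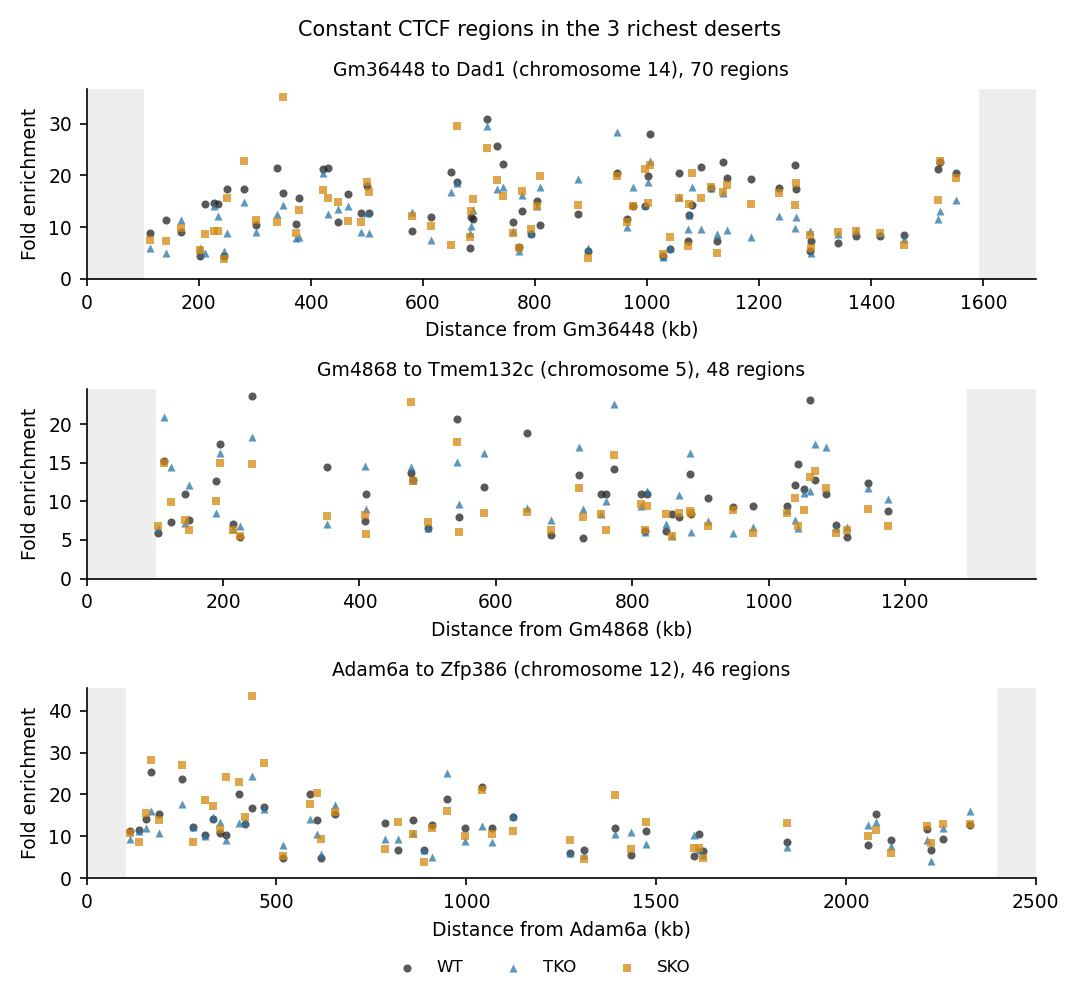
Fold enrichment (vertical axis) of every constant CTCF region in the 3 deserts with most members, against distance from the left flanking gene in kb; circles are WT, triangles TKO and squares SKO, and grey bands mark the 100 kb next to genes that the rule leaves out. The 70, 48 and 46 regions spread over most of each stretch, and the symbols of the 3 lists overlap.

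Members at the receptor loci differed among themselves in where they sat. Variable segments are the units that lymphocytes join during receptor assembly, and CTCF sites close to them are known at some loci. At the T cell receptor alpha and delta locus 40 of 70 members lay within 1 kb of a variable segment or variable pseudogene, at a median of 346 bases. At the heavy chain locus 29 of 46 did, at a median of 630 bases. At the immunoglobulin kappa locus 1 of 28 did, at a median of 5548 bases, so closeness to variable segments was not shared by the loci. The T cell receptor beta locus held 3 members, the immunoglobulin lambda locus 2 and the T cell receptor gamma locus 0. The median log2 ratio of SKO to WT fold was 0.11 over the 46 heavy chain members and -0.09 over the 70 alpha and delta members, beside -0.14 over all members away from receptor segments.

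WT regions in deserts were less often constant than those elsewhere, and they were weaker. All 3 lists held 4339 of 6637 desert regions with a WT peak (65.4%, 64.2 to 66.5%) and 46017 of 62104 other autosomal WT regions (74.1%, 73.8 to 74.4%). A peak in WT alone was found for 1257 desert regions (18.9%) and for 13.4% of the others; WT and TKO shared 9.16% of the desert regions without SKO, and WT and SKO shared 6.52% without TKO. When all autosomal WT regions were put into 10 equal bins by WT −log10 q, the peak caller's measure of confidence, the gap narrowed. In bin 1, the weakest, the shares were 12.9% in deserts (10.7 to 15.4%) and 13.0% elsewhere. In bin 2 they were 20.7% (18.1 to 23.6%) and 25.7% (24.6 to 26.9%), and in bin 4 63.4% (60.1 to 66.6%) and 67.5% (66.3 to 68.7%). In bin 6 the share was 97.0% for each class, and in bin 9 all 435 desert regions were constant. Deserts placed 808 WT regions in the weakest bin and 235 in the strongest. Because presence in the lists chose the members, these shares are descriptions.

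**Figure D2:**
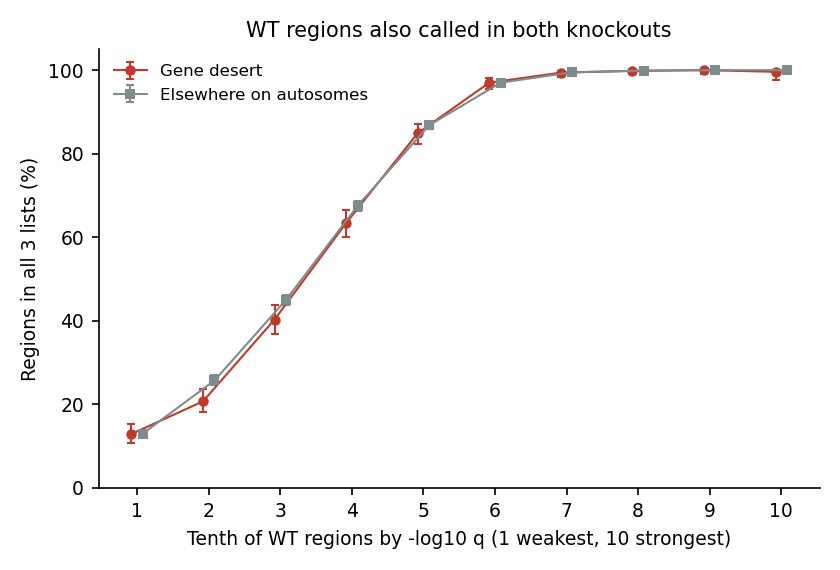
Share of autosomal WT regions found in all 3 lists, in percent, against 10 equal bins of WT −log10 q; circles are desert regions, squares regions elsewhere, and bars are 95% Wilson intervals. The curves rise together from 12.9% and 13.0% in bin 1 to 97.0% in each in bin 6.

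Constant regions in deserts were also weaker than the 46017 other constant autosomal regions. Median WT fold was 11.9 (quartiles 8.35 to 16.0) against 12.9 (8.87 to 17.7). In TKO the medians were 10.3 and 11.4, and in SKO 10.8 and 11.8. ChIP pileup, the number of fragments over the summit, differed more: 44 against 59 in WT, 39 against 52 in TKO and 33 against 42 in SKO. Background was lower as well, at 2.73 against 3.70 in WT, so the fold understates the gap in pileup. Members lay closer to the 1903 constant regions inside protein-coding genes of at least 500 kb, which had a median WT fold of 12.3 and a pileup of 48, than to the 4571 regions within 1 kb of a gene boundary, with 12.8 and 65. Regions with several WT summits made up 1.59% of members, against 2.57% in very long genes and 7.81% at gene boundaries. Peak intervals in WT were 371 bases wide at the median member and 403 at other constant regions.

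**Figure D3:**
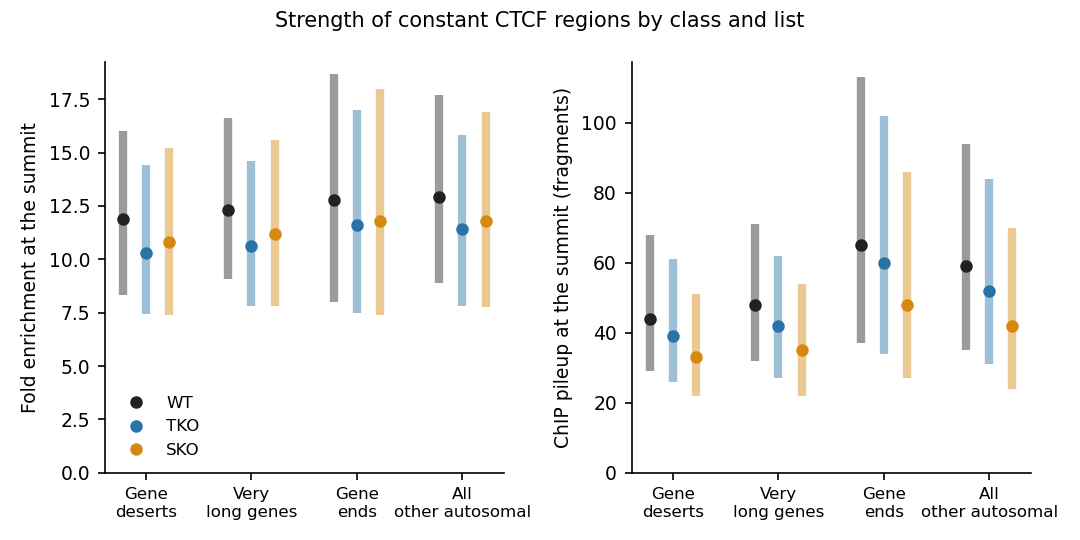
Median (dot) and quartiles (bar) of fold enrichment (left) and of ChIP pileup in fragments (right) for constant regions in gene deserts, inside very long genes, at gene ends and at all autosomal positions outside deserts, by list. Desert medians of WT, TKO and SKO fold are 11.9, 10.3 and 10.8, and desert pileups of 44, 39 and 33 are the lowest of the 4 classes in each list.

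Strength and constancy were lower at greater distance from genes. Between 100 and 200 kb lay 1991 members, 68.6% of WT regions at that distance were constant (66.8 to 70.2%), and the median WT fold of the members was 12.6. Between 200 and 500 kb there were 1671 members, 65.5% constant and a fold of 11.7. Between 500 and 1000 kb the values were 499, 59.5% and 10.7. Beyond 1000 kb they were 178, 52.2% (46.9 to 57.4%) and 9.47. Median folds beyond 1000 kb were 8.80 in TKO and 9.29 in SKO. WT pileup fell by distance too, from 49 to 43, 37 and 34 fragments, and its part in the share of constant regions was not tested.

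**Figure D4:**
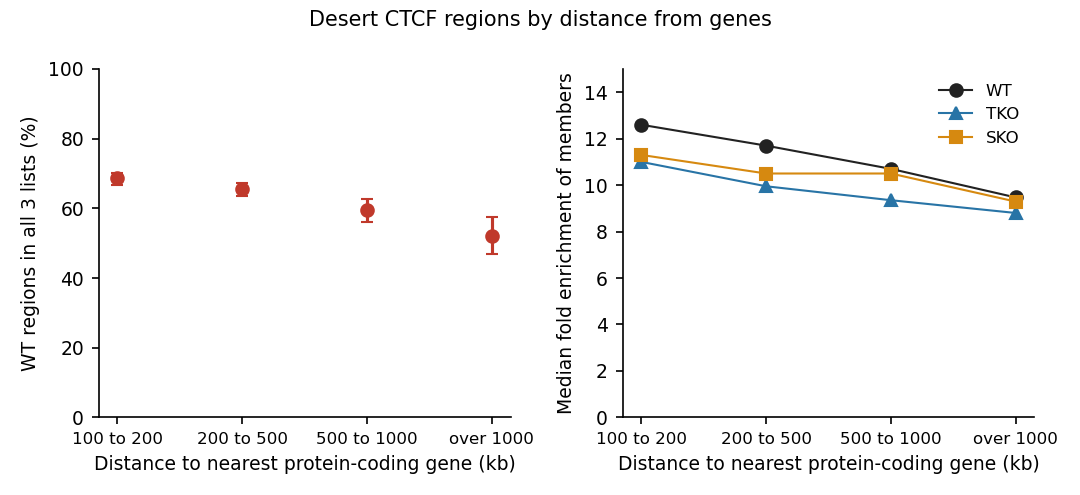
Left, share of desert WT regions found in all 3 lists, in percent with 95% Wilson intervals, and right, median fold of members in each list, against distance to the nearest protein-coding gene in kb. The share falls from 68.6% to 52.2% and the median WT fold from 12.6 to 9.47.

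Members at the edges of the rule show how little separates its sides. Just inside 100 kb, a region at chr7:66544362-66544787 near Asb7 had folds of 16.1, 14.2 and 8.01 in WT, TKO and SKO. Just outside, a region at chr10:119339852-119340797 near Cand1 had 18.0, 19.0 and 16.9. The 4 members nearest above the limit had WT folds of 7.63 to 17.9 and the 4 constant regions nearest below it 7.02 to 18.1. The farthest member lay at chr18:28077695-28078132, 2188 kb from Pik3c3 and 2323 kb from the RNA-binding protein gene Celf4, with folds of 9.47, 8.44 and 13.5. The same desert held another of the 6 farthest members, at chr18:27836853-27837327, with folds of 21.1, 13.5 and 11.2, highest in WT. The others of the 6 lay between Olfm4 and Pcdh17, Tenm3 and Aga, Pcdh20 and Pcdh9, and Cntnap5b and Cdh20. Their flanking genes include protocadherins, a cadherin, a teneurin and a contactin-associated protein, which are adhesion molecules of neurons.

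Spacing to the next constant CTCF region was wide. The nearest constant region was 28.6 kb away at the median (quartiles 9.12 to 82.5 kb), against 8.28 kb for other constant regions and 17.8 kb for those inside very long genes. It was more than 100 kb away for 898 members (20.7%), for 2.11% of the others and for 13.0% of those in very long genes. The most isolated member, at chr11:14960447-14960707 between Pom121l12 and Vstm2a, was 1301 kb from the next and had near-level folds of 6.53, 6.74 and 7.18. By chromosome, density ran from 4.43 members per Mb of desert on chromosome 18 to 7.86 on chromosome 9. Of 246 deserts longer than 1 Mb, 4 held no member: Rgs18 to Brinp3, Mmut to Ptchd4, Prr16 to Ftmt, and Gm46900 to Zfp804b.

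The strongest members were compared region by region. The highest WT fold, 52.2, was at chr6:112133465-112133995 between the glutamate receptor gene Grm7 and Lmcd1, where TKO had 34.2 and SKO 27.8. The pileups were 150, 141 and 175 fragments and the backgrounds 1.89, 3.15 and 5.33, so the fall in fold went with the background and not with the pileup; the ratio of SKO to WT pileup was 1.17 (exact interval 0.933 to 1.46). At chr17:4778108-4778612, between Nox3 and the chromatin remodeller gene Arid1b, fold went from 44.6 in WT to 27.9 in TKO and 13.2 in SKO. Here pileup fell too, from 126 to 97 and 56 fragments, and the SKO to WT pileup ratio of 0.444 (0.318 to 0.614) lay below 0.731, the median of that ratio over all constant autosomal regions. At chr12:18135235-18135834, within 1 kb of a transcribed pseudogene, folds were 47.2, 34.7 and 48.5 on pileups of 346, 361 and 306. At chr3:52843999-52844494, between the forkhead factor gene Foxo1 and Cog6, they were 43.4, 25.8 and 34.4. The others of the first 8 by WT fold lay between Nrp2 and Ino80d (43.0, 24.9 and 23.6), Mki67 and Mgmt (42.1, 27.8 and 23.7), Npvf and Gm38821 (42.0, 41.0 and 37.7), and 9530057J20Rik and Gm15319 (41.8, 48.3 and 38.4). Fold was highest in WT in 6 of these 8. The members were ranked on WT fold, which favours that list. Pileups were 249, 179 and 171 fragments beside Foxo1, 167, 204 and 172 beside Nrp2 and 119, 88 and 78 beside Mki67. Beside Npvf they were 152, 169 and 137, and beside 9530057J20Rik 1356, 1180 and 869. Backgrounds beside Nrp2 were 2.91, 7.24 and 6.32, so the fall in fold there was not one of pileup.

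Among members in or within 1 kb of noncoding genes, the highest WT folds after those in the Nrp2 and Npvf deserts, at the lncRNA genes Gm35252 and Gm31686, belonged to Gm34439, between the homeobox gene Msx2 and the dopamine receptor gene Drd1. Its folds were 41.7, 27.5 and 34.5 on pileups of 261, 260 and 160. Gm31340, between the glutamate transporter gene Slc1a3 and Ranbp3l, had 39.7, 21.8 and 18.0, with pileups of 118, 86 and 56. Gm35440, between the fucosyltransferase gene Fut8 and Gm6657, had 38.7, 42.4 and 36.3. Members inside lncRNA genes had a median WT fold of 12.8, against 11.7 for members outside them.

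The first comparison asks how CTCF enrichment at desert regions differed when the TET enzymes were absent. The median log2 ratio of TKO to WT fold was -0.16 over the members and -0.16 over all constant autosomal regions. Of the members, 900 (20.7%) were past 1.5-fold lower in TKO, against a background of 19.5% of all constant autosomal regions, and 304 (7.01%) were past 1.5-fold higher, against 6.80%. These shares lay near the background and are not a result about deserts. After the ratio was divided by its median over all constant autosomal regions, 560 members (12.9%) were past 1.5-fold lower and 539 (12.4%) higher, against 12.2% and 11.8% of all constant autosomal regions. On the scaled pileup described below the counts were 327 lower (7.54%, against 5.55%) and 297 higher (6.84%, against 5.23%). Both scales centre the ratios on their overall median, which evens out lower and higher calls by construction. A region lost from a list cannot be a member, so falls to no peak are left out by the rule.

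The second comparison, with TET and DNMT enzymes both absent, uses the same WT list. The median log2 ratio of SKO to WT fold was -0.13 over members and -0.11 over all constant autosomal regions. There were 875 members past 1.5-fold lower in SKO (20.2%; background 18.5%) and 406 past 1.5-fold higher (9.36%; background 9.68%). Between the knockouts, where DNMT enzymes are the labelled difference, the median log2 ratio of SKO to TKO fold was 0.03, beside 0.05 over all; 540 members were past 1.5-fold lower in SKO (12.4%; background 11.7%) and 692 higher (15.9%; background 15.9%). Within 1.5-fold of WT in both knockouts were 2343 members (54.0%), beside 55.9% of all constant autosomal regions. Lower in both were 365 (8.41%, beside 7.56%), higher in both 106 (2.44%, beside 2.40%), and lower in one and higher in the other 18 (0.415%, beside 0.477%).

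**Figure D5:**
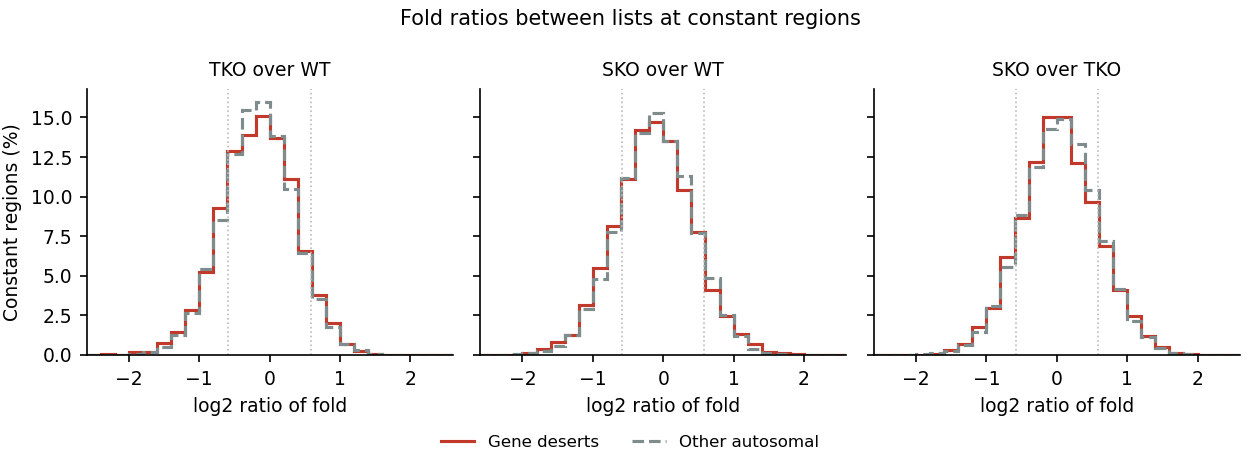
Percent of constant regions per bin of log2 ratio of fold, for TKO over WT, SKO over WT and SKO over TKO; solid lines are desert members, dashed lines other constant autosomal regions, and dotted lines mark 1.5-fold. The lines nearly coincide, with desert medians of -0.16, -0.13 and 0.03.

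Calls on the fold were set beside the pileup alone. Of the 900 members lower in TKO, 156 (17.3%) had a pileup ratio whose exact interval lay below the median pileup ratio of all constant autosomal regions, 0.891, beside 15.1% of all lower calls; of the 304 higher ones 73 (24.0%, beside 23.8%) lay above it. For SKO against WT 176 of 875 lower calls (20.1%, beside 18.9%) and 142 of 406 higher ones (35.0%, beside 25.3%) did. At the 304 members higher in TKO the median log2 ratio of background was -0.68 and that of pileup, after scaling by its overall median, 0.44. Over all constant autosomal regions called higher in TKO these were -0.75 and 0.40. Fold is made from pileup and background, so calls chosen on the fold move with both by construction.

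The pileup, divided by its median ratio between lists over all constant autosomal regions, gave other counts in SKO. On that scale 465 members (10.7%) were past 1.5-fold higher in SKO than WT, beside 6.13% of all constant autosomal regions, and 404 were lower (9.31%, beside 8.34%). Against TKO 478 (11.0%, beside 5.94%) were higher in SKO and 319 lower (7.35%, beside 7.31%). Low pileups scatter more, so members and other constant regions were compared within 4 ranges of WT pileup, chosen after the data were seen. Up to 29 fragments, 15.5% of members and 9.77% of the others were past 1.5-fold higher in SKO than TKO. From there to 44 fragments the shares were 13.8% and 7.99%, to 68 fragments 8.83% and 5.35%, and above that 5.82% and 2.64%. Members were above the others in each range. The top range has no upper limit and holds 1083 members and 19276 others, so pileups within it need not match. Lower in SKO than TKO were, by range, 8.61%, 9.57%, 7.06% and 4.16% of members, and 12.6%, 12.1%, 8.21% and 2.51% of the others. In the fold the excess of higher calls was not seen, at 15.9% of members and 15.9% of all.

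Individual regions moved further than the median. The largest fall in TKO was at chr12:64626579-64627029, between Fscb and Gm51965, with folds of 18.9 in WT, 3.62 in TKO and 5.01 in SKO on pileups of 53, 14 and 24. The TKO to WT pileup ratio was 0.264 (0.135 to 0.483). The next lay at chr1:107959959-107960368 between Serpinb8 and the cadherin gene Cdh7, with folds of 19.3, 3.84 and 8.74 and a pileup ratio of 0.296 (0.173 to 0.487). Another large fall, at chr10:66717891-66718312 between the alpha-catenin gene Ctnna3 and Reep3, went with folds of 24.7, 6.48 and 11.4 and a ratio of 0.421 (0.269 to 0.644). In these 3 regions the interval lay below 0.891, and SKO fold was below WT as well. The largest rises in TKO were between Abra and Angpt1 (9.77, 28.7 and 10.6), Egfem1 and Mecom (6.02, 16.0 and 13.1), and Celf2 and Gata3 (5.64, 14.6 and 6.01). Their pileup ratios were 1.27 (0.901 to 1.80), 1.10 (0.700 to 1.73) and 1.67 (1.01 to 2.79), and WT backgrounds of 5.55, 5.82 and 3.96 stood beside TKO backgrounds of 1.82, 1.82 and 2.15.

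In SKO against WT the largest fall was at chr15:74180004-74180393, between Gm6569 and the adhesion receptor gene Adgrb1, with folds of 17.5, 11.0 and 3.67 and pileups of 49, 30 and 10. The next, at chr6:95249481-95249855 between Kbtbd8 and Suclg2, had 18.9, 9.95 and 4.80, and the third was the Fscb region again. The largest rise was at chr2:107879648-107880045, between the potassium channel gene Kcna4 and Mettl15. There the folds were 4.12, 6.03 and 16.7 and the pileups 14, 16 and 49, so this rise was one of pileup. Rises followed at chr1:67521569-67522004 between Cps1 and the receptor gene Erbb4 (3.55, 4.96 and 13.1) and at chr16:3121971-3122430 before Olfr161 (5.22, 9.44 and 18.8). The pileup intervals of these 3 lay above 0.731.

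Between the knockouts, the largest falls from TKO to SKO were between Cox10 and Hs3st3a1 (folds 15.6, 18.1 and 5.41 in WT, TKO and SKO), between the B cell factor gene Ebf1 and Clint1 (8.72, 20.6 and 6.41) and in the Tenm3 to Aga desert (9.80, 16.3 and 5.41). The largest rises were between the neural factor gene Sox11 and Dcdc2c (6.54, 2.97 and 12.7), between Gm42163 and the centromere protein gene Cenpc1 (8.37, 6.87 and 24.4) and between Got2 and Cdh8 (12.7, 6.06 and 21.1). Pileups at the falls, in the order named, were 68, 50 and 17, then 40, 57 and 31, then 26, 45 and 17 fragments. TKO background was 1.82 at each of them, beside 2.33, 3.99 and 2.33 in SKO. At the Sox11 region pileup was 28, 16 and 29 fragments, and background was 4.72 in TKO and 1.37 in SKO. At the Cenpc1 region pileup was 45, 47 and 64, and background was 5.98 in TKO and 1.66 in SKO. At the Cdh8 region pileup was 72, 47 and 49, near level between the knockouts, while the background was 6.93 in TKO and 1.37, the floor of its list, in SKO.

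Whole deserts could be compared where they held 10 or more members; here a member counts as lower at any log2 ratio below 0, as 62.7% of all constant autosomal regions were in TKO and 58.3% in SKO, against WT. Of 90 such deserts, 74 had a median log2 ratio of TKO to WT fold below 0 and 69 a median ratio of SKO to WT below 0. The lowest TKO median, -0.53, was between the sialomucin gene Podxl and 1700012A03Rik on chromosome 6, where 8 of 12 members were lower in TKO. The 3 members nearest Podxl, 101 to 104 kb from it, had WT folds of 20.6, 12.5 and 23.2 and TKO folds of 11.5, 5.21 and 9.64. Between Matn1 and the phosphatase gene Ptpru 16 of 19 were lower, with a median of -0.50. The lowest SKO median, -0.69, was between the blood factor gene Runx1 and Setd4, where 8 of 10 members were lower in SKO; WT folds of 7.69 to 21.5 stood beside SKO folds of 2.75 to 28.1. Between Tbc1d22a and Tafa5 all 10 members were lower in SKO, with a median of -0.55. The highest SKO median, 0.29, was between Cdh6 and Cdh9, where 4 of 13 members were lower. These are the ends of 90 medians of 10 or more regions each, and no test was made of them.

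Flanking genes were put into 4 families by the stem of their symbol and not by known function. A family can therefore hold genes of other roles than its name says. Developmental transcription factor genes flanked 91 of the 977 deserts with members (9.31%) and 14 of the 399 without (3.51%). The flanked deserts were longer, at a median of 582 kb against 421 kb for all, and held 8.96 members per Mb. Length differed between deserts with and without members, at 571 and 259 kb, and its part in these shares was not tested. The fullest of these deserts lay beside the homeobox gene Zfhx3 (16 members), Prdm2 (16), the T-box gene Tbx3 (15) and Sall3 (15). Beside Tbx3 the median WT fold was 11.6, with 12.2 in TKO and 9.29 in SKO. Beside Sall3 it was 13.1, 15.9 and 13.3, highest in TKO. Between Pax1 and the endoderm factor gene Foxa2 lay 11 members, of which 7 were lower in TKO and 5 lower in SKO than in WT at any ratio below 0, where 62.7% and 58.3% of all constant autosomal regions lay.

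Secreted signal genes flanked 15 deserts with members (1.54%) and 5 without (1.25%). Between Ddhd1 and Bmp4, which encodes a bone morphogenetic protein, lay 7 members with WT folds of 9.72 to 19.3, TKO folds of 8.87 to 21.3 and SKO folds of 5.46 to 18.2; the 3 ranges overlapped. Between the growth factor gene Fgf9 and 1700129C05Rik lay 7 members with WT folds of 11.0 to 30.3, TKO folds of 9.35 to 15.6 and SKO folds of 5.41 to 14.8. These ranges overlapped as well. At any log2 ratio below 0, all 7 were lower in SKO than in WT and 6 were lower in TKO. Of all constant autosomal regions 58.3% and 62.7% were, in the same order. In the Bmp4 desert 6 of 7 were lower in SKO and 3 in TKO. The strongest member of the Fgf9 desert, at chr14:58510781-58511222, went from 30.3 to 15.6 and 11.7 on pileups of 85, 44 and 42 fragments. Neuronal adhesion and synapse genes flanked 103 deserts with members (10.5%) and 18 without (4.51%). Their deserts were the longest of the 4 families, at a median of 928 kb, and sparse, with 4.24 members per Mb; the fullest, Dsel to Cntnap5a and Tenm3 to Aga, held 19 members each. Chemosensory receptor genes, which come in large clusters, flanked 4 deserts with members (0.409%) and 12 without (3.01%). Deserts of this family were short, at a median of 233 kb against 421 kb for all, and the part of length was not tested. They held 5 members, of which 2 lay between Hira and Olfr164, both near antigen receptor segments.

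The same regions gave like values in the 3 lists. Spearman's rho between TKO and WT over the members was 0.70 for fold and 0.88 for pileup, and over other constant regions 0.75 and 0.93. Between SKO and WT it was 0.69 and 0.85 over members. Members are not independent replicates, and each pair of lists shares its regions. The strongest summits of TKO and WT lay 10 bases apart at the median, and 98.9% were within 100 bases.

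A small set of members had fragments far above the rest. At the start of chromosome 9, 21 members lay within chr9:3000248-3038233, before the first protein-coding gene, Alkbh8. Their WT folds were 1.70 to 3.44, on backgrounds of 81.4 to 1636 and pileups of 224 to 3519 fragments. WT had a median background of 225, TKO of 836 and SKO of 550. The highest pileup of all members, 27795 fragments in WT, was at chr2:98666596-98667286 in the Lrrc4c to Iftap desert, with a background of 7634 and a fold of 3.64. Next came chr14:19416886-19418185 by background, with 10549 fragments, a background of 3307 and a fold of 3.19. Without the 30 members of background 20 or more, the median WT fold of the rest was 11.9 and 900 were lower in TKO. Of the 30, 0 were past 1.5-fold in TKO against WT on the fold, so leaving them out could not change that count. They stayed in the counts on the scaled pileup, where their part was not tested.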

How the data were processed

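CTCF ChIP-seq of mouse embryonic stem cells was deposited as 3 peak lists (WT, TKO and SKO), each called by the authors on 3 ChIP and 3 input replicates pooled, per the labels. The submitters' processing notes name MACS2 2.1.2, Bowtie2 2.3.4, the mm10 build, deepTools 3.5.0, SAMtools 1.9, FastQC 0.11.7 and bedtools 2.25.0. The command lines and any filters on reads were not given in the sources used here. The deposited fold (a ratio of ChIP pileup to background), the −log10 p and −log10 q against input, and the score derived from q were made by the authors with the peak caller. Library totals are not known from the lists, so depth is given as the pileup at each summit. The whole-number pileup and the background were recovered from fold and −log10 p for 100.0% of rows in each list, at a tolerance of 1e-04.

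Rows with the same interval were joined, intervals overlapping by at least 1 base were merged, and a region's value in a list was that of its summit with the highest −log10 q. The deposited fold was read as pileup plus 1, divided by background plus 1. Regions were called past 1.5-fold in the ratio of deposited folds. Shares carry 95% Wilson intervals and pileup ratios exact conditional binomial intervals. With 1 pooled list per genotype no test between genotypes was possible. Gene spans were those of RefSeq on GRCm38.p6, with 21896 protein-coding genes. The 100 kb rule measured distance to every protein-coding span. Genes on autosomes listed as ending below 3 Mb were left out as scaffold entries only when desert stretches and flanking genes were drawn up. No genome was used, so sequence was examined in RefSeq promoter windows alone. The regions named were the 8 members with the highest WT fold, the 6 farthest from genes, the 3 largest rises and falls per comparison, those of the richest deserts, the 4 on each side of the distance limit and up to 6 in or near genes of other biotypes; the most isolated members, those of high background, the single deserts named for their median ratio or their flanking genes, and the promoter windows were chosen after their values were seen. A region and a desert that the rule selects are not reported here; the next region in order was used. The members and lists were chosen with earlier results of these data known. Alternatives changed the distance, gene biotypes, q, the shift allowed between summits, summit value, scale and fold of the call. Scripts (Python 3.11.15, numpy 2.4.6, pandas 2.3.3, SciPy 1.17.1, matplotlib 3.10.9) were tested on simulated data.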

Additional observations from a re-analysis of the deposited data

How the results depend on the processing

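No paired analysis was possible because each genotype has 1 list pooled over its replicates; leaving out replicates was not possible for the same reason. Counts of members past 1.5-fold are given in the order lower and higher in TKO than WT, lower and higher in SKO than WT, then lower and higher in SKO than TKO. At a distance of 50 kb there were 7026 members, 67.4% of desert regions were constant, the median WT fold was 12.4 (-0.497 from other constant regions) and the counts were 1429, 475, 1398, 658, 868 and 1130. At 200 kb the values were 2348, 62.9%, 11.3 (-1.60) and 473, 165, 451, 237, 299 and 393. Counting RefSeq genes of every biotype gave 659, 57.8%, 10.6 (-2.16), a median log2 SKO to WT ratio of -0.10, and 150, 48, 127, 80, 80 and 116; under these 3 settings fewer or more regions qualify by construction. With a −log10 q of at least 5 the share was 67.5% and the median WT fold 12.3. After division by the median ratio, the median log2 ratios were 0.00 (TKO to WT) and -0.03 (SKO to WT), with 560 lower and 539 higher in TKO. On the scaled pileup the medians were -0.01 and 0.04, with 327 lower in TKO, 404 lower in SKO than WT and 319 lower in SKO than TKO. At a 2-fold call the counts were 239 (5.51% of members, beside 4.73% of all constant autosomal regions), 42 (0.968%, 1.09%), 250 (5.76%, 5.16%), 103 (2.37%, 1.85%), 123 (2.83%, 2.55%) and 189 (4.36%, 3.90%). The share of members called minus that of all constant autosomal regions lay between -0.3 and 1.7 percentage points as reported, -0.3 and 1.4 at 50 kb, 0.2 and 1.0 at 200 kb, 0.4 and 3.3 with every biotype, -0.3 and 1.4 after division by the median, and 0.0 and 5.1 on the scaled pileup. Of 116 alternative values 68 stayed within the counting or quantile interval of the value reported (for counts, within 1.5 times) and 48 moved beyond it. The median WT fold of members was below that of other constant regions under every distance, biotype, q, summit shift and summit value setting run. Leaving out members near receptor segments or with a background of at least 20, both chosen after seeing the data, moved none of the 12 results. Few of the 30 members of high background were called on the fold, so the counts could move little without them. The scaled pileup was not rerun without either group. The median WT pileup of 44 fragments sets the width of the counting intervals; the part of depth and of background in single calls was not tested.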
